A study of Mus musculus with 14 samples.

Results

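The Hox genes encode homeodomain transcription factors that give cells their position along the body axis, and in mouse they lie in 4 clusters, Hoxa to Hoxd, on different chromosomes. Within a cluster, genes with low paralog numbers lie at the anterior end and genes with high numbers at the posterior end, and the order on the chromosome follows the order of use in the embryo. In adult fat, Hox expression differs between depots, and the clusters are a well-known target of the Polycomb and trithorax chromatin regulators, which keep whole stretches of a cluster silent or active. DNA methylation at the CpG sites of the clusters was described here in mammary adipose tissue, as the methylation level, the share of reads at a CpG that were methylated.

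All 317 CpG sites that the deposited table assigned to a gene of the 4 clusters were taken, out of 75761 sites in all. The sites belonged to 32 of the 39 Hox genes: 9 genes and 89 sites in Hoxa on chromosome 6, 8 genes and 92 sites in Hoxb on chromosome 11, 7 genes and 40 sites in Hoxc on chromosome 15, and 8 genes and 96 sites in Hoxd on chromosome 2. By the GENCODE annotation of mm10, 107 sites lay in a coding exon of the named gene, 21 in a UTR, 2 in another exon, 96 in an intron and 91 outside the gene. Because the clusters are dense, many sites also lay inside another annotated gene: 49 in Hoxa, 44 in Hoxb, 17 in Hoxc and 74 in Hoxd, often a long transcript such as Gm28230 over Hoxd3 or Hoxaas3 over Hoxa5.

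Reduced-representation bisulfite sequencing (RRBS), which reads CpGs in the short fragments left by the enzyme MspI, was made from 14 female wild-type (wt) C57BL/6N mice. CON-LFD mice (n = 3) ate a control low-fat diet throughout. The other mice were made obese with a 60% high-fat diet (diet-induced obesity, DIO): DIO-HFD mice (n = 4) stayed on it, DIO-LFD mice (n = 3) were switched to the low-fat diet, and DIO-VSG mice (n = 4) had vertical sleeve gastrectomy (VSG), a surgery that removes most of the stomach, together with the switch to the low-fat diet. The mice without VSG had sham surgery. In week 22 all mice, controls included, received E0771 mammary cancer cells in the fourth mammary fat pad, so every sample came from a tumor-bearing mouse, and the fat pad of the opposite side was taken at the end. The labels carry the E0771 cell line for all samples, although the tissue is the normal contralateral pad. The pad holds adipocytes, epithelium, immune and vascular cells, and a change in their proportions cannot be told apart from a change of methylation within a cell type. The table holds levels without read counts. Depth per site is therefore unknown, and counting error could not be estimated. The p-values measure the spread between these mice.

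One library stood apart. Over all sites the mean level was 65.0% in DIO-HFD replicate 1 and 56.9, 57.4 and 57.3% in replicates 2 to 4, while the other 10 mice lay between 59.9 and 64.1%. Over the 317 Hox sites the levels of DIO-HFD replicate 1 correlated with those of the 3 other DIO-HFD mice at r = 0.80 to 0.83 (across sites, which share libraries and reads) and with those of the 4 DIO-VSG mice at r = 0.96 to 0.97. The 3 other DIO-HFD mice correlated with each other at r = 0.94 to 0.95. Whether its label is right cannot be told from the files, and every DIO-HFD mean includes it unless stated. The counts of calls and most of the genes and sites named for a difference from DIO-HFD are therefore also given without it. It was set aside because of its levels, so the p-values without it are a description of the 13 mice that remain and not an independent test.

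The DNA around the measured CpGs that the comparisons below turn on is shown first, from the GRCm38.p6 assembly, with each measured CpG in capitals. The Hoxa5 promoter is shown because 8 CpGs of its 250 bases upstream of the start were measured and had the same pattern over the mice. It lies on the minus strand at chr6:52204588-52204837 and holds 28 CG in all.

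Hoxa5 promoter: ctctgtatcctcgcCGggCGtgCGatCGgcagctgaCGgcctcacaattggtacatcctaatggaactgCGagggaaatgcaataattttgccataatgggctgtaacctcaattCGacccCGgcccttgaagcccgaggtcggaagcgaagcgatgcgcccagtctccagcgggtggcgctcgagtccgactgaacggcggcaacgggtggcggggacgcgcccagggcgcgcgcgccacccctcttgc

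The windows of 61 bases that follow are on the plus strand. Each is centred on a CpG that had the smallest p-value in a comparison or one of the largest SDs between mice. The Hoxa5 coding window (chr6:52203879-52203939) and the Hoxa4 window (chr6:52192637-52192697) were among the most variable. The Hoxd3 windows lie at chr2:74734715-74734775, chr2:74732725-74732785 and chr2:74736060-74736120, and the Hoxb9 window at chr11:96272747-96272807.

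Hoxa5 coding exon, 679 bp from its start: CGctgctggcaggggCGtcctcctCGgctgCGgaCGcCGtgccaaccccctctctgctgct
Hoxa4 upstream, at -915 bp: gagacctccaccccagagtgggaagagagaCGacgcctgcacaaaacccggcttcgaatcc
Hoxd3 intron, at -1770 bp: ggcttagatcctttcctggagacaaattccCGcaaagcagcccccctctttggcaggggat
Hoxd3 intron, at -3760 bp: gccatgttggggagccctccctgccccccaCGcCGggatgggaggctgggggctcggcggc
Hoxd3 intron, at -425 bp: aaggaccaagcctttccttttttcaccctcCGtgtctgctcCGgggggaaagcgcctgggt
Hoxb9 intron, at 1256 bp: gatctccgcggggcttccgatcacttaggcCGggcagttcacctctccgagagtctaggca

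Distances are from the nearest annotated transcript start, with negative values upstream of it. The Hoxd3 sites upstream of that start lay in an intron of longer Hoxd3 transcripts.

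The Hox clusters were methylated at a lower level than the rest of the table. The mean over the 317 sites was 38.7%, against 61.7% over all sites, and the SD between sites was 23.0 percentage points. Levels under 20% were found at 99 Hox sites (31.2%, against 8.85% of all sites) and levels over 80% at 16 (5.05%, against 32.4%). The Hox sites also differed in context, with 45.1% in CpG islands against 23.8% of all sites, 48.6% against 25.8% within 1000 bp of a start, and a median of 12 against 8 CpGs in the surrounding 201 bases. The gap in the mean was present on both sides of the island boundary: outside islands Hox sites averaged 41.3% and all sites 67.5%, and inside islands they averaged 35.6% and 43.0%.

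Averaged over islands and other sequence, promoters and gene bodies of the Hox clusters had nearly the same level, while the gap had opposite signs inside and outside islands. Sites within 1000 bp of a start averaged 38.2% (154 sites) and exon or intron sites farther away 39.5% (123 sites), whereas over all sites of the table promoters averaged 46.1% and bodies 64.0%. Within each mouse the Hox promoter level minus the body level was -1.32 ± 1.92 percentage points (mean ± SD, n = 14; below 0 in 11 mice), and the same difference over all sites was -17.9 ± 1.80. Gene bodies were far lower than in the rest of the table: Hox body sites averaged 47.5% outside islands and 31.3% inside them, against 67.9 and 46.3% for all body sites. Hox promoters minus Hox bodies came to -12.0 percentage points outside islands and were above 0 inside them. Hox promoters inside islands averaged 41.1%, close to the 41.9% of all island promoters, while Hox promoters outside islands averaged 35.5% against 50.8%.

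**Figure D1:**
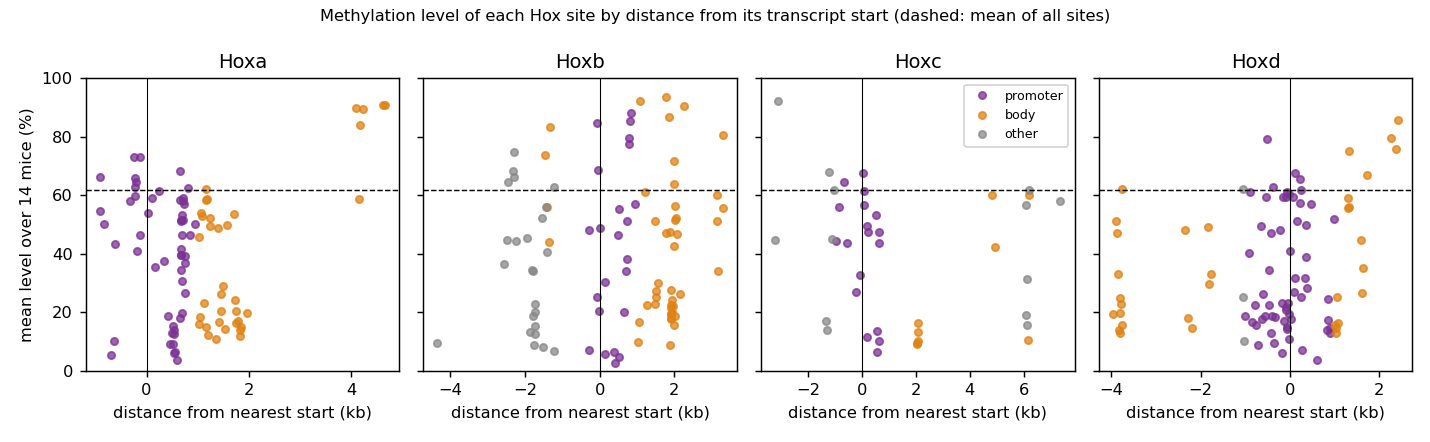
Mean methylation level over the 14 mice (y axis, percent) of each of the 317 Hox sites by its distance from the nearest transcript start (x axis, kilobases), for the 4 clusters, with promoter, body and other sites in different colors and the mean of all sites of the table, 61.7%, as a dashed line. Sites from near 0 to over 80% lie on both sides of the start, and most lie under the dashed line.

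The 4 clusters had similar means, 40.5% in Hoxa, 41.1% in Hoxb, 38.9% in Hoxc and 34.8% in Hoxd, each with an SD between sites of 21.0 to 25.0 percentage points. Along the clusters the middle genes had the highest mean, without a gradient from end to end. Genes of paralog groups 1 to 4 averaged 34.5% (9 genes), groups 5 to 8 averaged 49.8% (10 genes) and groups 9 to 13 averaged 35.4% (13 genes), with SDs between genes of 18.5, 10.4 and 10.9. The rank correlation between paralog number and gene level was -0.07 over all 32 genes, which share libraries. It was 0.10 in Hoxa, 0.29 in Hoxb and -0.14 in Hoxd, and -0.86 over the 7 Hoxc genes. In Hoxc the level went from 55.6% in Hoxc6 down to 17.004% in Hoxc11, with Hoxc12 at 38.5% and Hoxc13 at 28.5%.

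Within each cluster the highest and lowest genes were far apart. In Hoxa, Hoxa5 was highest at 63.5% over 23 sites and Hoxa2, an anterior gene that patterns the hindbrain and second pharyngeal arch, was lowest at 10.97%. In Hoxb, Hoxb8 had 54.2% and Hoxb2 4.64%, and in Hoxd, Hoxd4 had 64.8% and Hoxd12, a gene of distal limb patterning, 24.1%. Hoxd3 held the most sites of any Hox gene, 47, and averaged 27.6%. Single sites spanned from 2.65% in Hoxb2 to 93.7% in Hoxb8. The longest run of neighbouring sites, 19 sites in 171 bp of the second kilobase of Hoxb3, averaged 34.5% and still ranged from 8.97 to 71.8% between its sites.

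Hox levels as a whole hardly differed between groups, while the mean of the whole table was higher in the 3 other groups than in DIO-HFD. The mean over Hox sites was 39.001, 39.4 and 36.3% in the CON-LFD mice, 38.98, 36.3, 41.5 and 37.5% in DIO-HFD, 40.4, 37.0 and 38.5% in DIO-LFD, and 39.7, 39.5, 38.8 and 39.2% in DIO-VSG. Every pair of groups overlapped. The difference from DIO-HFD was -0.31 percentage points in CON-LFD, 0.09 in DIO-LFD and 0.75 in DIO-VSG, while the mean over all sites was higher by 2.97, 3.07 and 4.38 percentage points. Without DIO-HFD replicate 1 the Hox differences were -0.17, 0.23 and 0.89, and those of all sites 4.92, 5.03 and 6.34. Below this mean, clusters and genes had differences of opposite sign.

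In mean level, before any allowance for the shift of all sites, Hoxa and Hoxd differed from DIO-HFD in opposite directions. The Hoxa mean was 43.9, 32.3, 39.2 and 34.5% in the DIO-HFD mice and 44.9, 43.0, 42.8 and 42.7% in the DIO-VSG mice. The Hoxd mean was 32.2, 36.6, 42.1 and 38.3% in DIO-HFD and 32.7, 33.5, 33.7 and 33.5% in DIO-VSG. In both clusters DIO-HFD replicate 1 lay with or beyond the DIO-VSG mice and replicates 2 to 4 lay on the other side of them, below in Hoxa and above in Hoxd. The DIO-VSG minus DIO-HFD difference was 5.89 percentage points in Hoxa and -3.95 in Hoxd with all mice, and 8.02 and -5.66 without replicate 1. CON-LFD differed from DIO-HFD by 2.81 and -3.40 (4.94 and -5.11 without replicate 1), and DIO-LFD by 3.41 and -3.13 (5.55 and -4.84). The sizes rested on single mice in the other direction too: without DIO-HFD replicate 2 the Hoxa differences of CON-LFD, DIO-LFD and DIO-VSG were 1.08, 1.68 and 4.15, and without replicate 3 the Hoxd differences were -1.80, -1.52 and -2.35. In Hoxb and Hoxc no difference from DIO-HFD exceeded 1.21 percentage points, and the groups overlapped. The picture changed when levels were taken relative to each mouse's mean over all sites, with all mice. The Hoxa differences of CON-LFD, DIO-LFD and DIO-VSG were then -0.16, 0.34 and 1.51, and those of Hoxd -6.37, -6.20 and -8.33. Those of Hoxb and Hoxc were all below 0, from -4.81 to -2.61. After this allowance most of the Hoxa difference was gone, and Hoxd stayed lower in each group.

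**Figure D2:**
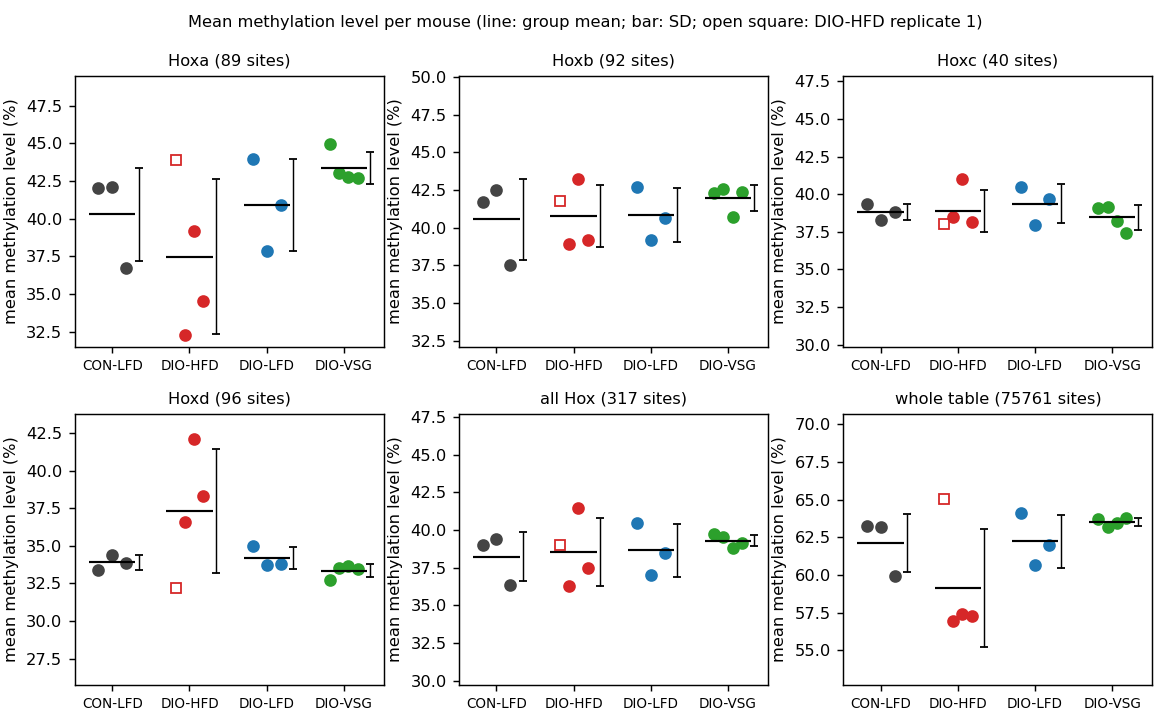
Mean methylation level (y axis, percent) of each mouse over the sites of the 4 clusters, all Hox sites and all sites of the table, by group (x axis), with the group mean as a line, the SD as a bar and DIO-HFD replicate 1 as an open square. Each panel spans 18 percentage points. DIO-HFD replicates 2 to 4 lie low in Hoxa and high in Hoxd, and the mean over all Hox sites does not separate the groups.

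Within Hoxa, before any allowance for the shift of all sites, the promoter mean differed and the body mean did so much less. Hoxa promoter sites averaged 47.4, 27.4, 36.9 and 30.3% in the DIO-HFD mice and 48.5, 44.4, 45.9 and 44.8% in DIO-VSG. The Hoxa body sites averaged 38.7, 39.4, 42.7 and 40.7% in DIO-HFD and 39.7, 41.0, 38.2 and 39.7% in DIO-VSG. Promoters of the cluster were 10.4 percentage points higher in DIO-VSG than in DIO-HFD (14.4 without replicate 1). Bodies differed by -0.73 (-1.30 without replicate 1), a mean over body sites that differed in both directions, as Hoxa9 and Hoxa5 show below. Over all sites of the table, promoters were 2.36 percentage points higher in DIO-VSG and bodies 5.48 (3.62 and 7.90 without replicate 1). Hoxa promoters were thus higher in DIO-VSG by more than promoters elsewhere, and the Hoxa body mean lacked the difference of bodies elsewhere. Sites flagged as promoter include Hoxa5 coding exon CpGs described below, which lie within 1000 bp of the start. Hoxa5 and Hoxa4 held 23 and 15 of the 89 Hoxa sites, and the promoter means without them were not computed.

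Site by site, no Hox site passed the test in any comparison with all 14 mice. Of the 317 sites, 221 had an SD of at least 5 percentage points between mice and were tested with limma on M, the log2 ratio of methylated to unmethylated share, together with all 65610 such sites. In DIO-VSG relative to DIO-HFD the adjusted p reached 0.150 at best, and 41 Hox sites were higher and 28 lower at an unadjusted p under 0.05, that is 18.6 and 12.7% of those tested against 20.2 and 4.85% of all sites. In CON-LFD relative to DIO-HFD 5 were higher and 16 lower, against 6.0 and 1.76% of all sites, and in DIO-LFD 4 were higher and 17 lower, against 7.92 and 2.16%. Between DIO-VSG and DIO-LFD 3 were higher and 2 lower, against 3.98% of all sites in both directions. At adjusted p under 0.05 the percentage of all sites was 0.0 for CON-LFD and 0.00305 for each of the other 3 comparisons. With each mouse centred on its median, which removes the shift of all sites (a median difference in M of 0.29, 0.30 and 0.48 for CON-LFD, DIO-LFD and DIO-VSG relative to DIO-HFD), the DIO-VSG count was 23 higher and 65 lower, or 10.4 and 29.4% of Hox sites against 8.64 and 11.4% of all sites, again with 0 adjusted calls. The centred CON-LFD count was 4 and 25, against 4.15 and 3.4% of all sites, and the DIO-LFD count 4 and 24, against 5.53 and 4.43%.

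Without DIO-HFD replicate 1 many Hox sites passed the adjusted threshold, in both directions. In DIO-VSG 45 Hox sites were higher and 46 lower, against 28.8 and 5.62% of all sites. In DIO-LFD 16 were higher and 30 lower, against 12.1 and 2.42%, and in CON-LFD 9 were higher and 23 lower, against 9.67 and 2.3%. In each of these comparisons lower calls took a larger share of the Hox sites than of all sites. Of the 45 sites higher in DIO-VSG, 30 were in Hoxa, 12 in Hoxb and 3 in Hoxd, and of the 46 lower sites 27 were in Hoxd, 9 in Hoxa, 7 in Hoxb and 3 in Hoxc. Of the 104 tested Hox promoter sites 31.7% were higher and 14.4% lower, against 20.4 and 4.31% of all promoter sites. Of the 84 tested Hox body sites 14.3% were higher and 31.0% lower, against 38.7 and 7.88% of all body sites. No Hox site was called between DIO-VSG and DIO-LFD without that mouse, where limma gave 11 higher and 6 lower at an unadjusted p under 0.05 (4.98 and 2.71%, against 4.36 and 2.42% of all sites).

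Averaged per gene, differences of both signs were found within single clusters. With all mice no Hox gene of 31 tested was called by limma in any comparison (0.0% of 11825 genes), and at an unadjusted p under 0.05 there were 5 higher and 2 lower in DIO-VSG relative to DIO-HFD, where 21.4 and 3.31% of all genes were. In CON-LFD there were 1 and 0, against 6.02 and 0.871%, in DIO-LFD 1 and 0, against 7.37 and 1.53%, and between DIO-VSG and DIO-LFD 1 and 1, against 3.27 and 1.57%. Without DIO-HFD replicate 1, DIO-VSG had 6 Hox genes higher (Hoxa4, Hoxa5, Hoxa6, Hoxb4, Hoxb7 and Hoxd12) and 3 lower (Hoxa9, Hoxb9 and Hoxd3). These were 19.4 and 9.68% of the tested Hox genes, against 27.4 and 2.89% of all genes. DIO-LFD had Hoxa4, Hoxa5 and Hoxa6 higher and Hoxa9, Hoxb9 and Hoxd3 lower. Each direction was 9.68% of the Hox genes, against 11.7% higher and 1.17% lower of all genes. CON-LFD had Hoxa6 higher and Hoxd3 lower, each 3.23% of the Hox genes, against 9.20 and 0.956% of all genes. With both directions together, 29.0, 19.4 and 6.45% of the Hox genes were called in DIO-VSG, DIO-LFD and CON-LFD. The shares of all genes were 30.3, 12.9 and 10.2%. With all mice and each mouse centred on its median, the DIO-VSG minus DIO-HFD difference in M of the higher genes shrank, from 0.62 to 0.14 in Hoxd12, 0.76 to 0.27 in Hoxb7, 0.86 to 0.38 in Hoxb4, 1.04 to 0.56 in Hoxa4, 1.24 to 0.76 in Hoxa6 and 1.28 to 0.80 in Hoxa5. That of the lower genes grew in size, from -0.33 to -0.81 in Hoxb9, -0.80 to -1.28 in Hoxa9 and -0.88 to -1.36 in Hoxd3, and none was called. The comparisons share the DIO-HFD mice, so their lists are not independent of each other.

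**Figure D3:**
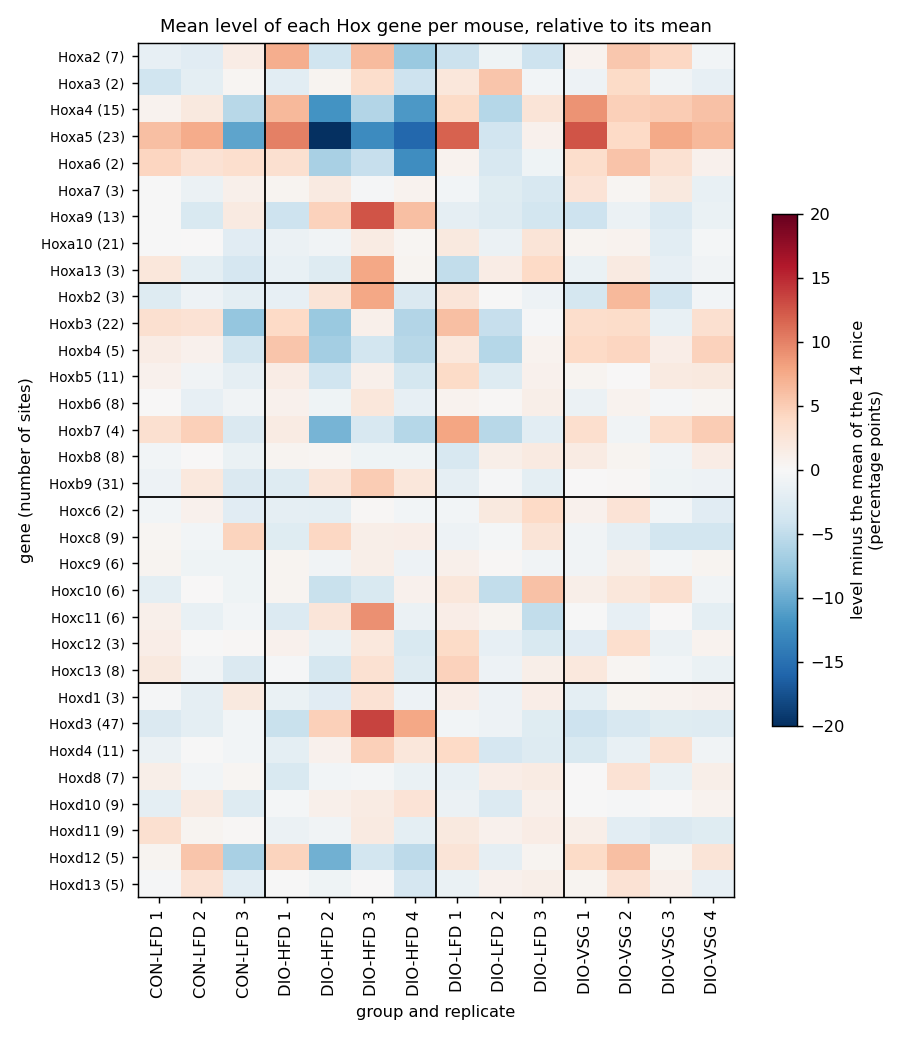
Mean level of each of the 32 Hox genes (rows, with the number of sites) in each of the 14 mice (columns) minus the gene's mean over the mice, in percentage points on a color scale from -20 to 20. In DIO-HFD replicates 2 to 4 Hoxa4, Hoxa5 and Hoxa6 are low and Hoxa9 and Hoxd3 are high, and DIO-HFD replicate 1 shows neither.

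Hoxa5, a central gene with a part in lung and mammary development and in adipose tissue, had a low level in 3 of the 4 DIO-HFD mice. Its mean over 23 sites was 69.5, 70.9 and 53.0% in CON-LFD, 73.7, 39.5, 51.0 and 47.8% in DIO-HFD, 75.3, 59.7 and 64.5% in DIO-LFD, and 76.0, 67.5, 71.0 and 69.96% in DIO-VSG. DIO-HFD replicates 2 to 4 were the 3 lowest of the 14 mice, and replicate 1 was among the highest. All 22 tested sites had a higher M in DIO-VSG than in DIO-HFD, in DIO-LFD than in DIO-HFD and in CON-LFD than in DIO-HFD, with an unadjusted p under 0.05 at 15, 3 and 0 of them. Of all sites, 20.2, 7.92 and 6.0% were higher at that p. The median difference in M over all sites was also above 0, at 0.48, 0.30 and 0.29. Neighbouring CpGs share reads, so the 22 sites are not independent of each other. The gene difference in M for DIO-VSG minus DIO-HFD was 1.28 ± 0.49 (SE; limma adjusted p = 0.168) and 1.77 ± 0.38 without replicate 1 (adjusted p = 0.00653). With each mouse centred it was 0.80 ± 0.33 (adjusted p = 0.232).

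Separate stretches of Hoxa5, one upstream of the start and one in the coding exon, had the same pattern. The 8 promoter CpGs shown above, from -236 to -129 bp, averaged 74.5, 35.5, 47.7 and 48.9% in the DIO-HFD mice and 72.1, 68.8, 70.4 and 63.6% in DIO-VSG. The 9 CpGs in the coding exon, from 672 to 730 bp, averaged 62.3, 20.3, 40.6 and 29.0% in DIO-HFD and 69.9, 51.4, 62.4 and 62.4% in DIO-VSG. In both stretches the 3 low DIO-HFD mice lay under all DIO-VSG mice. CON-LFD replicate 3, at 48.2% and 41.1%, lay within or just above the range of the low DIO-HFD mice, and the remaining CON-LFD mice were at 67.8 and 67.9% and at 60.2 and 61.2%. At the most variable of these CpGs, 679 bp from the start, the 3 low DIO-HFD mice had 15.9, 36.3 and 30.3% and the DIO-VSG mice 71.2, 49.0, 59.8 and 63.7%. The CpGs at 694 and 709 bp, also among the 5 most variable Hox sites, had 19.2 to 41.6% and 16.9 to 43.2% in these 3 mice and 58.2 to 73.8% and 52.2 to 67.3% in DIO-VSG. Farther away, at 4667 bp, the level was 94.4, 79.4, 70.9 and 82.9% in DIO-HFD and 100, 95.7 and 92.3% in DIO-LFD, a difference in M of 2.45 ± 0.77 (adjusted p = 0.494; 0.0263 without replicate 1).

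Of the neighbours of Hoxa5 in the cluster, Hoxa4 and Hoxa6 had the same pattern and Hoxa7 did not. Hoxa4 averaged 42.4, 23.9, 30.1 and 24.4% in DIO-HFD and 44.9, 40.7, 41.0 and 41.8% in DIO-VSG, a difference in M of 1.04 ± 0.34 (adjusted p = 0.161), or 1.40 ± 0.25 without replicate 1 (adjusted p = 0.00304). Its CpG at -915 bp had 71.4, 16.7, 35.9 and 35.9% in DIO-HFD and between 58.8 and 64.5% in DIO-VSG. Hoxa6, with 2 sites of which 1 was tested, averaged 61.4, 51.6, 53.6 and 45.8% in DIO-HFD and 61.7, 63.8, 61.2 and 59.1% in DIO-VSG. Its difference in M was 1.24 ± 0.41 (adjusted p = 0.161), or 1.72 ± 0.25 without replicate 1 (adjusted p = 0.00179), and CON-LFD, at 62.4, 61.1 and 61.5%, differed by 1.03 ± 0.44 (adjusted p = 0.659; 0.0197 without replicate 1). Hoxa7, at a mean of 49.4%, had a DIO-VSG minus DIO-HFD difference in M of -0.03 ± 0.19, and Hoxa10, at 29.4%, one of 0.04 ± 0.19.

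Hoxa9, a posterior gene known for its role in blood progenitors and leukemia, had the pattern opposite to Hoxa5 in the same cluster. Its mean over 13 sites was 29.6, 26.6 and 31.4% in CON-LFD, 25.5, 34.2, 42.2 and 35.6% in DIO-HFD, 27.9, 27.0 and 25.9% in DIO-LFD, and 25.5, 28.4, 26.8 and 28.3% in DIO-VSG. DIO-HFD replicates 2 to 4 were the 3 highest of all mice. The difference sat in 1 run of 8 sites, from 1715 to 1839 bp, with 15.6, 30.3, 38.3 and 31.4% in DIO-HFD and 15.6, 19.1, 18.5 and 19.0% in DIO-VSG. The gene difference in M for DIO-VSG was -0.80 ± 0.34 (adjusted p = 0.183) and -1.17 ± 0.23 without replicate 1 (adjusted p = 0.00440). Mir196b, the microRNA gene that lies next to Hoxa9, had 22.8, 35.2, 34.6 and 34.5% in DIO-HFD over 11 sites and 22.1 to 25.9% in the other 10 mice.

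Hoxd3, an anterior gene linked to cell adhesion and vessel growth, had more called sites than any other Hox gene without DIO-HFD replicate 1. In DIO-VSG they were 26 of 34, all lower, where 5.62% of all sites were called lower. It also had the most tested sites, and the called share was larger in Hoxa5 (19 of 22) and Hoxa9 (7 of 9). The Hoxd3 mean over 47 sites was 24.7, 25.8 and 27.1% in CON-LFD, 23.2, 32.4, 41.1 and 35.4% in DIO-HFD, 27.1, 26.6 and 25.2% in DIO-LFD, and 23.6, 24.5, 25.2 and 25.1% in DIO-VSG. DIO-HFD replicates 2 to 4 lay above all other mice and replicate 1 below all of them. All 34 tested sites had a lower M in DIO-VSG than in DIO-HFD and in CON-LFD than in DIO-HFD, and 32 of them in DIO-LFD. The share of all sites with a lower M was not counted, and neighbouring CpGs share reads. At 25 of the 47 sites each of the 3 high DIO-HFD mice exceeded all 10 mice of the other groups. The share of all sites with such a gap was not counted, so this is not particular to Hoxd3 by these values. Without replicate 1, 34.4% of all tested sites were called in DIO-VSG relative to DIO-HFD. The gene difference in M was -0.88 ± 0.30 for DIO-VSG (adjusted p = 0.161), -0.71 ± 0.33 for CON-LFD (adjusted p = 0.659) and -0.67 ± 0.33 for DIO-LFD (adjusted p = 0.551). Without replicate 1 these were -1.23 ± 0.18 (adjusted p = 0.00178), -1.07 ± 0.19 (adjusted p = 0.0197) and -1.03 ± 0.19 (adjusted p = 0.0161).

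The single Hox sites with the smallest p-values were mostly in Hoxd3. At the intron CpG at -1770 bp the level was 28.1, 52.2, 62.0 and 51.1% in DIO-HFD and 19.0, 25.3, 20.9 and 22.2% in DIO-VSG. The groups did not overlap, replicate 1 included, with a difference in M of -1.69 ± 0.44 (limma adjusted p = 0.150; 0.00246 without replicate 1). At the CpG at -3760 bp the level was 12.7, 24.5, 34.8 and 30.4% in DIO-HFD, 12.2, 13.99 and 10.9% in CON-LFD and 7.6 to 13.2% in DIO-VSG. The differences in M were -1.16 ± 0.41 for CON-LFD (adjusted p = 0.611; 0.0169 without replicate 1) and -1.34 ± 0.38 for DIO-VSG (adjusted p = 0.150; 0.00218 without replicate 1). The CpG at -1811 bp had 22.0, 40.5, 56.4 and 53.2% in DIO-HFD and 15.3 to 22.3% in DIO-VSG, and the CpG at -472 bp 16.8, 33.0, 43.3 and 36.7% in DIO-HFD and 13.8 to 19.2% in CON-LFD, so replicate 1 lay within the other group at both. At -425 bp it was 10.8, 26.2, 28.1 and 20.7% in DIO-HFD and 6.4, 5.7 and 13.3% in DIO-LFD, a difference in M of -1.47 ± 0.45 (adjusted p = 0.494; 0.0154 without replicate 1). The Hoxd3 site at -3801 bp did not overlap between DIO-LFD (9.5, 5.2 and 10.6%) and DIO-HFD (11.1, 18.6, 27.8 and 20.9%).

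**Figure D4:**
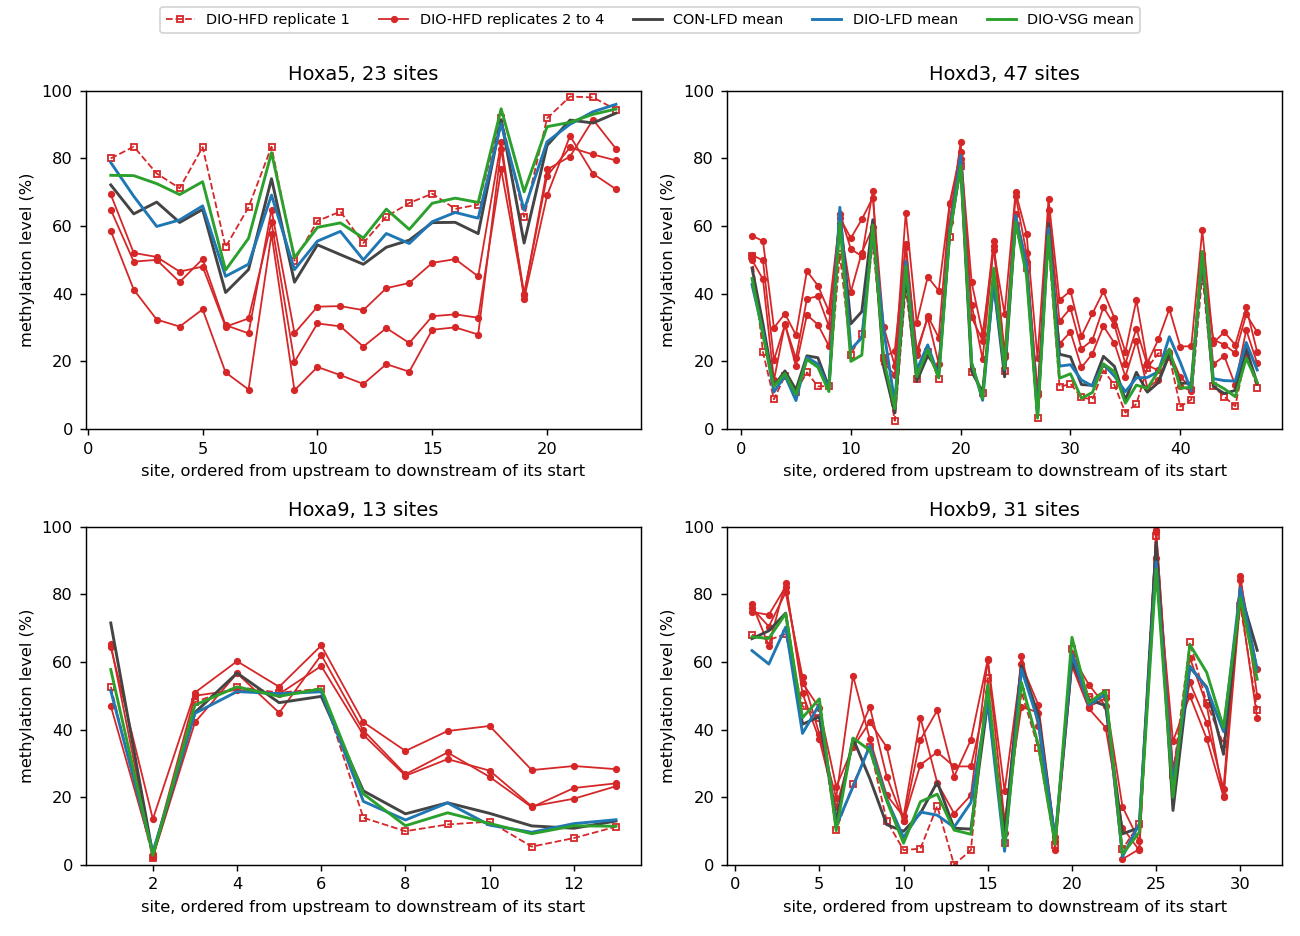
Methylation level (y axis, percent) at each site of Hoxa5, Hoxd3, Hoxa9 and Hoxb9 in order from upstream to downstream (x axis, evenly spaced), for each DIO-HFD mouse in red (replicate 1 dashed with open squares) and as group means for CON-LFD, DIO-LFD and DIO-VSG. Replicates 2 to 4 lie under the other groups along Hoxa5 and over them along most of Hoxd3 and at the last 8 sites of Hoxa9, while replicate 1 follows the other groups.

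Hoxb genes also had differences of both signs. Hoxb9, a posterior gene that acts in mammary gland development together with its paralogs, had 36.6, 41.6, 44.2 and 41.5% in DIO-HFD and 39.3, 39.4, 38.4 and 38.3% in DIO-VSG over 31 sites, a difference in M of -0.33 ± 0.22 (adjusted p = 0.341) and -0.53 ± 0.17 without replicate 1 (adjusted p = 0.0349). Its intron CpG at 1256 bp had the smallest p of all Hox sites in CON-LFD relative to DIO-HFD, at 10.9, 20.9 and 16.3% against 26.5, 28.2, 36.5 and 25.6%. Those groups did not overlap, and the limma difference in M was -1.10 ± 0.39 (adjusted p = 0.611; 0.0795 without replicate 1). Hoxb4, at 45.3, 33.0, 36.1 and 34.1% in DIO-HFD and 43.6, 44.0, 41.0 and 44.4% in DIO-VSG, was higher in DIO-VSG by 0.86 ± 0.32 in M (adjusted p = 0.167; 0.00995 without replicate 1). Hoxb7, at 26.7, 15.7, 21.7 and 19.2% against 28.3, 24.4, 28.6 and 30.1%, had a difference of 0.76 ± 0.31 (adjusted p = 0.177; 0.0202 without replicate 1).

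No Hoxc gene was called in any comparison with DIO-HFD, with or without replicate 1. Hoxc10 had the largest difference in M of its cluster in DIO-VSG relative to DIO-HFD, 0.92 ± 0.50 over its 2 tested sites (adjusted p = 0.263; 0.113 without replicate 1), with gene means of 42.5, 37.6, 38.95 and 42.9% against 43.3, 44.2, 45.2 and 41.3%. Hoxc11 was at 14.3, 19.5, 26.1 and 15.8% in DIO-HFD and 16.98, 15.3, 17.1 and 15.1% in DIO-VSG, so only replicate 3 was clearly above. Hoxd12 had 28.6, 14.5, 20.5 and 18.8% in DIO-HFD and 27.9, 30.1, 24.7 and 26.8% in DIO-VSG, against the direction of Hoxd3 in the same cluster. Hoxc9, Hoxb6, Hoxb8, Hoxd8 and Hoxd13 had small ranges of group means, with the widest of these gaps, 2.04 percentage points, in Hoxd8. Single sites could still vary: the Hoxd8 UTR CpG at 1736 bp had an SD of 17.4 percentage points over the mice, with 100% in CON-LFD replicate 1 and DIO-HFD replicate 4 and 90% in DIO-LFD replicate 2, and the group ranges overlapped.

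**Figure D5:**
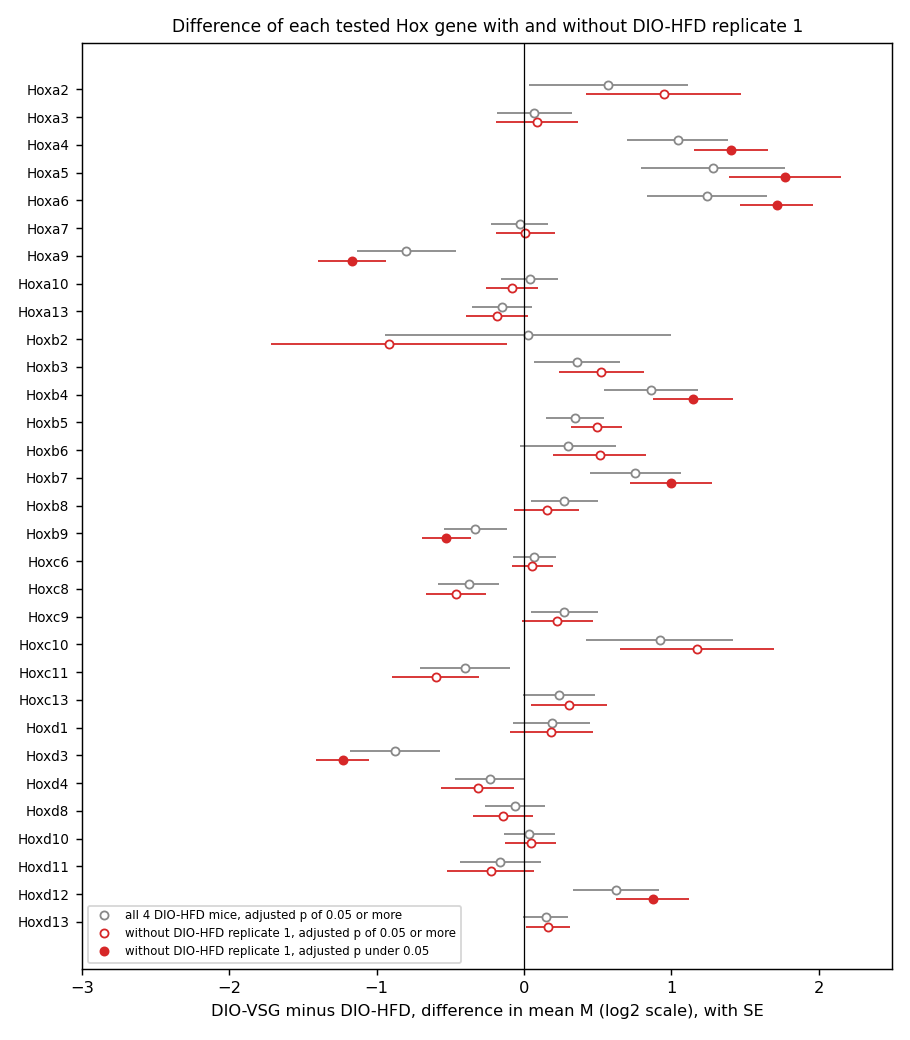
DIO-VSG minus DIO-HFD difference in the mean M of each of the 31 tested Hox genes (x axis, log2 scale, bars are SE), in gray with all 4 DIO-HFD mice and in red without replicate 1, with filled points at an adjusted p under 0.05 over all genes. No gray point is filled, and 9 red points are, 6 to the right of 0 and 3 to the left.

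No Hox site or gene was called between DIO-VSG and DIO-LFD, the comparison of surgery with diet alone, and the smallest adjusted p was 0.945 among sites and 0.955 among genes. The sites with the smallest p were in Hoxa2 (at 557 bp: 0, 5.1 and 0% in DIO-LFD and 8.8, 8.5, 10.7 and 4.7% in DIO-VSG), Hoxc8 and Hoxb6 (at -63 bp: 98.0, 97.2 and 76.1% in DIO-LFD and 74.7 to 82.2% in DIO-VSG, which overlapped). The Hoxc8 CpG at 6198 bp had 66.7, 69.8 and 66.3% in DIO-LFD and 57.1, 54.5, 57.6 and 57.4% in DIO-VSG without overlap, a difference in M of -0.66 ± 0.27 (limma adjusted p = 0.945). Over all Hoxa2 sites the mean was 6.7, 10.1 and 6.8% in DIO-LFD and 11.6, 16.3, 15.1 and 10.4% in DIO-VSG, and these groups did not overlap either (difference in M 1.19 ± 0.58, adjusted p = 0.955). Hoxc8 as a gene had 47.3, 48.1 and 51.0% in DIO-LFD and 47.7, 46.6, 44.8 and 44.8% in DIO-VSG, a difference of -0.53 ± 0.22 (adjusted p = 0.955), and Hoxd1 one of -0.43 ± 0.28 (adjusted p = 0.955). These p-values miss the threshold and do not show that the levels were equal.

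Genes that work with the Hox proteins or control the clusters gave no adjusted call with all 14 mice. Of the TALE homeodomain cofactors, which bind DNA beside Hox proteins, 7 of 9 genes had sites, and 8 of 45 tested sites were higher and 2 lower in DIO-VSG relative to DIO-HFD at an unadjusted p under 0.05, with a smallest adjusted p of 0.0548. Pbx2, one of them, had 64.1, 32.2, 39.3 and 34.9% in DIO-HFD and 58.6, 57.1, 53.5 and 56.1% in DIO-VSG over 22 sites. Of the ParaHox and linked homeobox genes (8 of 9 with sites), 5 of 34 tested sites were higher and 0 lower. Of the transcripts inside the clusters (8 of 15 with sites), 3 of 47 were higher and 6 lower, and of the Polycomb and trithorax regulators (13 of 19 with sites), 27 of 202 were higher and 19 lower. The background for these counts is the 20.2 and 4.85% of all sites given above. Without DIO-HFD replicate 1 the adjusted calls in DIO-VSG were 17 higher and 1 lower for the cofactors, 8 and 1 for the ParaHox and linked genes, 5 and 14 for the cluster transcripts and 39 and 25 for the regulators, against the 28.8 and 5.62% of all sites.

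Markers of cell types were covered too thinly to check the makeup of the tissue, and the methylation of a marker is not its expression. Adipocyte markers had sites in 3 of 8 genes, immune markers in 2 of 7 and endothelial markers in 2 of 3, all under the 80% set as a minimum, and epithelial markers in 5 of 6. The endothelial sites averaged 36.8, 38.9 and 32.4% in DIO-HFD replicates 2 to 4, 51.5% in replicate 1 and 40.6 to 56.4% in the other groups. The same 3 mice also had the lowest means over all sites of the table. The adipocyte sites averaged 52.5, 55.6 and 55.2% in these mice, 55.3% in replicate 1 and 52.1 to 62.3% in the other groups. The immune sites averaged 79.8, 82.2 and 82.4%, 96.0% and 72.4 to 90.3%. The immune list was 1 site each in Cd3e and Adgre1, whose DIO-VSG minus DIO-HFD differences were -17.5 and 7.96 percentage points. The adipocyte and immune lists fell short of the 80%, so their averages do not show whether the 3 mice stood apart. The epithelial sites averaged 61.9 to 66.6% in DIO-HFD and 59.1 to 66.2% in the other groups, and its genes did not move together: in DIO-HFD Krt8 was at 48.2% in replicate 1 and 68.8, 67.1 and 57.1% in replicates 2 to 4, while Krt18 was at 83.7% in replicate 1 and 73.3, 74.2 and 72.7%, and Krt5 at 83.3% and 77.1, 80.7 and 78.4%. The part of cell makeup in the Hox differences was not tested.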

How the data were processed

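RRBS was measured in mammary adipose tissue from 14 mice. The authors used Bismark for alignment (mm10), samtools for sorting and methylKit for the calls, filtered sites on coverage and left out 2 outlier mice. The deposited values are methylation levels as a fraction at each CpG in each mouse, without counts. The table has no missing level. It still holds sites with an SD under 0.05, a class that the study's methods name as removed. Levels were multiplied by 100 for description.

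Sites were assigned to genes by the symbol in the table (nearest transcript) and all sites whose symbol was Hoxa, Hoxb, Hoxc or Hoxd with a number were taken. Members and lists were chosen with earlier results of these data known. Sites with an SD under 0.05 over the mice were described but not tested (96 of 317 Hox sites and 10151 of all). M was log2((level + 0.01)/(1 - level + 0.01)). limma 3.58.1 (R 4.3.3) was fitted over all 4 groups and all 65610 tested sites, or over gene means of M for 11825 genes, with eBayes and Benjamini-Hochberg adjustment, two-sided. The M of a gene averages its tested sites only, while the level given for a gene averages all its sites. The scripts were tested on simulated data. Means over members had no test. Replicates are separate mice by their labels. Promoter (within 1000 bp of a start), exon, intron and island flags are those of the table, a site with none of the first 3 is called other, and annotation was GENCODE vM21. Sequences were read from RefSeq GRCm38.p6 with samtools 1.23.1.

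The rule for naming took the 3 Hox sites with the smallest p in each comparison and the Hox gene with the smallest p in each cluster. It also took the genes with most sites and with the highest and lowest level in each cluster. The 5 most variable sites and the 3 longest runs completed it. Not all of these are given with values in every comparison. Left out, among others, are the differences of Hoxc8 for CON-LFD and of Hoxc13 for DIO-LFD relative to DIO-HFD. Hoxa4, Hoxa7, Hoxa10, Mir196b, Pbx2 and the shorter Hoxa5 and Hoxa9 runs were picked with their values in view. The alternatives tried were another offset in M, untransformed levels, other variance settings, only 2 groups, centring each mouse, other SD filters, a replicate block and leaving out each mouse.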

Additional observations from a re-analysis of the deposited data

Results flagged for a closer look

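In 4 of the 50 groups of 4 mice examined (the DIO-HFD and DIO-VSG mice, for the means over clusters, promoters, bodies and the named genes), 1 mouse lay far from the other 3, with a gap to its nearest neighbour over Dixon's critical share of the group's range. Chance gives about 1 in 20 groups, or 2.5 here. The Hoxa mean of DIO-VSG replicate 1 was 44.9% and the other DIO-VSG mice had 42.7 to 43.0% (gap 0.864 of the range). The Hoxb mean of DIO-VSG replicate 3 was 40.7% against 42.3 to 42.6% (gap 0.859). The Hoxc mean of DIO-HFD replicate 3 was 41.0% against 37.99 to 38.5% (gap 0.836). The Hoxd1 mean of DIO-VSG replicate 1 was 32.9% against 35.4 to 35.7% (gap 0.883).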

How the results depend on the processing

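The counts of called Hox sites and genes depended on 1 mouse. Leaving out each mouse in turn, the called Hox sites ranged from 0 to 32 (CON-LFD), from 0 to 46 (DIO-LFD) and from 0 to 91 (DIO-VSG) relative to DIO-HFD, and the called genes from 0 to 2, 0 to 6 and 0 to 9. Between DIO-VSG and DIO-LFD both stayed at 0. Each upper end came from leaving out DIO-HFD replicate 1. No Hox site or gene was called by limma with untransformed levels, only 2 groups or centred mice. The replicate numbers were not taken as pairs in the main fit. Correlations of same-numbered mice ran from -0.08 to 0.20, 4 of 19 over 0.1, and 8 of 14 mice were closest to their own number. The number expected by chance was not computed, so a weak pairing cannot be told from none. The replicate block gave 0 adjusted site and gene calls, and 45 higher and 27 lower Hox sites at an unadjusted p under 0.05 in DIO-VSG relative to DIO-HFD (22.5 and 5.15% of all sites). The mean over Hox sites relative to each mouse's mean over all sites differed by -3.27, -2.98 and -3.63 percentage points for CON-LFD, DIO-LFD and DIO-VSG relative to DIO-HFD and by -0.65 between DIO-VSG and DIO-LFD, and in CpG islands alone DIO-VSG was 2.70 higher than DIO-HFD. Promoters minus bodies outside islands came to -12.0 percentage points, since body sites there were higher. Over sites in place of genes, the correlation with paralog number was 0.015. The Hoxd1 difference in M between DIO-LFD and DIO-HFD turned to -0.014 with no filter on SD. The causes were not tested. Without read depth, counting error at single sites is unknown.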
